A study of Homo sapiens with 16 samples.

Results

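The clustered histone genes were taken as every gene whose deposited name starts with HIST1H, HIST2H, HIST3H or HIST4H and is not named as a pseudogene. This gave 74 of the 60357 genes in the count tables, with 15 names left out as pseudogenes. The 74 genes comprised 6 H1, 17 H2A, 22 H2B, 14 H3 and 15 H4 genes. By name, 55 belonged to HIST1 (GRCh38 chr6:25726132-27893843), 14 to HIST2 (chr1:121108210-149888013), 4 to HIST3 (chr1:228424845-228464626) and 1 to HIST4 (chr12:14767999-14771131). Within HIST2, HIST2H2BA (chr1:121108210-121117257) lay far from the other genes of that name, which spanned chr1:149782689-149888013. RNA-seq had been done on Kasumi-1 and SKNO-1, established lines of acute myeloid leukaemia that carry the translocation t(8;21) and so make the RUNX1/ETO fusion, the latter grown with GM-CSF. Each line had been exposed to 2 µg/ml of lipid nanoparticles (LNP) for 24 h and harvested on day 3. The particles carried either siRE-mod, a chemically modified siRNA against the fusion transcript, or siMM-mod, its modified mismatch control. There were 3 libraries per line and siRNA, 12 in all, with 60559466 to 147990959 reads counted on genes (median 89160101), and all 4 groups shared the particles, the exposure and the harvest day. The labels name no separate cultures, so the p-values measure the spread between these libraries, which may in part be technical. In Kasumi-1 siMM-mod and SKNO-1 siRE-mod that spread also spans libraries with and without expression of the gene CD34, as described below.

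Core histones H2A, H2B, H3 and H4 form the nucleosome, and H1 binds the linker DNA between nucleosomes. The clustered genes are transcribed in S phase, when new chromatin has to be packaged, and most of their mRNAs end in a stem-loop, bound by SLBP, in place of a poly(A) tail. A smaller number of clustered genes, such as HIST1H1C and HIST2H2BE, can also make polyadenylated mRNA in cells that are not dividing.

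The stem-loop is shown because it is what sets these mRNAs apart from other coding mRNAs. In the GRCh38 genome with the GENCODE 44 annotation, a stem-loop of 16 bases, with a stem of 6 pairs that starts with GG and a loop of TTTN, was searched for in the 100 bases after the stop codon. Such a loop was present in 63 of the 68 clustered histone genes found there by identifier with an annotated stop codon (92.6%). It was present in 5 of 19856 coding genes with other identifiers (0.0252%). HIST2H2AA3 and HIST2H2AA4 had no gene of the same identifier in that annotation and were not searched as members. Capitals mark the stem-loop in the following stretches, read in the direction of the gene, and the coordinates are those of the capitals.
HIST1H1C (chr6:26055744-26055759, minus strand): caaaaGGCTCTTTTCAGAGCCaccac
HIST1H2BB (chr6:26043232-26043247, minus strand): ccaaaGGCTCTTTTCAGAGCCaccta
HIST2H2BF (chr1:149811885-149811900, minus strand): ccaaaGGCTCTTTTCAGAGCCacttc
HIST1H2BC (chr6:26123472-26123487, minus strand): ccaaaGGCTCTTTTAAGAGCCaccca
HIST1H4F (chr6:26240778-26240793, plus strand): taaaaGGCCCTTTTCAGGGCCacctc
HIST2H4A (chr1:149833032-149833047, plus strand): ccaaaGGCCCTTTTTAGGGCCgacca
The word of HIST1H1C occurred in 38 genes, that of HIST1H2BC in 10, that of HIST1H4F in 10 and that of HIST2H4A in 4. HIST1H1C, HIST1H2BB and HIST2H2BF held the same word. Their levels are described further on, and a relation of the word to levels was not tested. The loop began 22 to 62 bases after the stop codon (median 35). The span on which reads were counted ended before the end of the loop in 32 genes and ran past it in 31, by more than 100 bases in 23 of them. Sequence past the loop was thus counted for some genes and not for others.

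The promoters of H2A and H2B genes are known to carry an octamer bound by POU factors. In the RefSeq promoters of 300 bases (GRCh38.p14; 250 bases before and 50 after the start), ATTTGCAT or its reverse complement ATGCAAAT was found in 11 of 16 H2A and 10 of 18 H2B promoters. It was found in 1 of 12 H3, 0 of 6 H1 and 0 of 13 H4 promoters, and for 598 of all 27305 genes with a listed promoter (2.19%). All these counts are per gene. The H3 gene, HIST1H3D, held the same stretch as HIST1H2AD, and some H2A and H2B neighbours, such as HIST1H2AC and HIST1H2BC, shared a stretch. The octamers of an H2B gene that was higher and one that was lower in libraries without CD34 are shown in capitals, with the coordinates of the whole stretch.
HIST1H2BB (chr6:26043815-26043844, minus strand): ataaattccatATTTGCATaaaccccaccc
HIST2H2BF (chr1:149812401-149812430, minus strand): tgcgagtcttcATTTGCATacgggctctat
The match lay 120 bases before the start of HIST1H2BB and 49 bases before that of HIST2H2BF. Both promoters thus held the octamer in the same orientation.

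The targeted fusion transcript, read through RUNX1T1 (ETO), the fusion's 3′ partner, went against some of the labels. All levels are given as normalized CPM, i.e. reads per gene scaled to a common library total (CPM) after TMM scaling over the 12 libraries. In the libraries labelled SKNO-1, RUNX1T1 stood at 329, 297 and 127 in siMM-mod and at 123, 164 and 40.3 in siRE-mod replicates 1 to 3. In those labelled Kasumi-1 it stood at 296, 92.7 and 161 in siMM-mod and at 44.3, 159 and 37.2 in siRE-mod. The siRE-mod and siMM-mod libraries of each line overlapped in RUNX1T1. CD34, a surface marker of immature blood cells, divided the libraries across both labels: it was at 117 to 420.1 in 6 libraries and at 0.107 to 0.625 in the other 6. The libraries with CD34 were all 3 labelled SKNO-1 siMM-mod, SKNO-1 siRE-mod replicate 1, and Kasumi-1 siMM-mod replicates 1 and 2. Those with CD34 near 0 were all 3 labelled Kasumi-1 siRE-mod, Kasumi-1 siMM-mod replicate 3, and SKNO-1 siRE-mod replicates 2 and 3. MPO and KIT, both myeloid leukaemia markers, were expressed in every library, but at levels that differed between the sides. MPO was at 10412 to 22611 with CD34 and 1778 to 5736 without it, and KIT at 681 to 996 and 96.8 to 514. CD38, a further marker of that list, went the other way, at 8.40 to 9.91 and 153 to 217. Of the 6 listed markers, CD34 included, 3 were lower and 1 higher without overlap where CD34 was near 0 (background 15.6% and 17.5%). Of 10 markers of other cells, 9 stayed at or below 0.598. The exception was EPCAM, an epithelial marker, at 77.4 to 104 in the CD34-expressing libraries and at or below 0.0108 in the others. Its part in the results was not tested. The results below therefore give the library labels, and values are also read in the order of CD34 and then RUNX1T1. Groups read in this order were formed from measured values, so they carry no test.

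Of the 74 genes, 60 had at least 600 reads over the 12 libraries, 7 had fewer, and 7 were listed at 0 in every library. The expressed genes comprised 4 H1, 12 H2A, 18 H2B, 12 H3 and 14 H4 genes, of which 46 lay in HIST1, 13 in HIST2 and 1 in HIST4. All 4 HIST3 genes stood at or near 0: HIST3H2A, HIST3H2BA and HIST3H2BB had no read, and the testis gene HIST3H3 had at most 8 reads in a library. The testis-specific genes HIST1H1T (at most 4 reads), HIST1H2AA and HIST1H2BA (none) were likewise at or near 0. The last 2 genes listed at 0, HIST1H2AK and HIST1H3D, share 100% of their counted bases with another gene. HIST1H2AD shares 98.0% of its bases with AL031777.3 and HIST1H2AM 88.0% with HIST1H3J, and both were near 0 as well. HIST1H3J in turn shares 44.6% of its own bases. Smaller overlaps were those of HIST1H2BE with AL353759.1 (28.2%), HIST2H2AB with BOLA1 (23.4%) and HIST2H2BF with FCGR1A (5.54%), all on opposite strands, and of the neighbours HIST2H2BC (30.9%) and HIST2H2BD (55.1%) with each other. Also on opposite strands, HIST2H3A overlapped HIST2H4B and HIST2H3C overlapped HIST2H4A (10.4% of each H3 gene, 8.97% of HIST2H4B and 9.22% of HIST2H4A). HIST1H2BN shares 7.25% of its bases with HIST1H2AK and HIST1H2AL, and HIST1H2AL 1.02% of its own with HIST1H2BN. Whether the counting used strand is not given in the sources used here, so the values of these genes are uncertain. Abundant RNAs such as RMRP and RN7SK were also listed at 0, so a 0 in these tables is no evidence of missing expression. In the 4 libraries from Kasumi-1 xenografts 42 of the 74 genes were listed, none with a count, and these libraries, with counts on 14 to 18 genes each, were not used.

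Together the clustered histone genes took 2.00% of all counted reads, from 0.968% in SKNO-1 siRE-mod replicate 2 to 3.09% in Kasumi-1 siRE-mod replicate 3. Per kilobase of counted exon, the highest gene of each type by mean normalized CPM was HIST1H1B for H1 (679.5 per kb), HIST2H2AA4 for H2A (3046), HIST1H2BK for H2B (551), HIST2H3C for H3 (991) and HIST1H4K for H4 (2799). All but HIST1H1B and HIST1H2BK have a near-identical copy, so the reads of a pair cannot be assigned to one gene. The 4 such pairs, HIST2H2AA3 with HIST2H2AA4, HIST2H3A with HIST2H3C, HIST2H4A with HIST2H4B and HIST1H4J with HIST1H4K, share over 80% of their 50-base words. Within 3 of the pairs the counts of the copies differed by less than 2% in every library, with a lowest ratio of 0.986. HIST2H2AA3 over HIST2H2AA4 was the exception, at 0.823 in Kasumi-1 siMM-mod replicate 2 and below 1 in replicate 3 (173122 against 194634 reads). In those same libraries the neighbouring HIST2H2AC stood at 447 and 375, against 75.2 to 269 in the other 10. Counting each pair as 1 gene lowered the share of reads to 0.731% to 2.18%. HIST2H2BA, HIST2H2BC, HIST2H2BD and HIST3H2BA, which the name rule keeps, are pseudogenes in GENCODE 44 and added little (9623 to 27811 without them, against 9635 to 27824 in all).

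The summed level of the 74 genes varied 2.89-fold between libraries and overlapped between both labels and between both sides of CD34. In the order of the CD34-expressing libraries it was 19006 in SKNO-1 siMM-mod replicate 1, 22956 in SKNO-1 siMM-mod replicate 2 and 19719 in Kasumi-1 siMM-mod replicate 1, which had the higher RUNX1T1. It was 12431 in SKNO-1 siMM-mod replicate 3, 11769 in SKNO-1 siRE-mod replicate 1 and 25986 in Kasumi-1 siMM-mod replicate 2, with the lower RUNX1T1. Among the libraries with CD34 near 0 it was 9635 in SKNO-1 siRE-mod replicate 2, 23752 in Kasumi-1 siMM-mod replicate 3 and 12894 in Kasumi-1 siRE-mod replicate 2. These had the higher RUNX1T1 of that side. It was 24013 in Kasumi-1 siRE-mod replicate 1, 23826 in SKNO-1 siRE-mod replicate 3 and 27824 in Kasumi-1 siRE-mod replicate 3, with the lower RUNX1T1. The sums on the CD34-expressing side (11769 to 25986) and on the other (9635 to 27824) overlapped almost entirely. In bulk RNA, fewer cells in S phase and less histone mRNA per cell cannot be told apart.

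**Figure D1:**
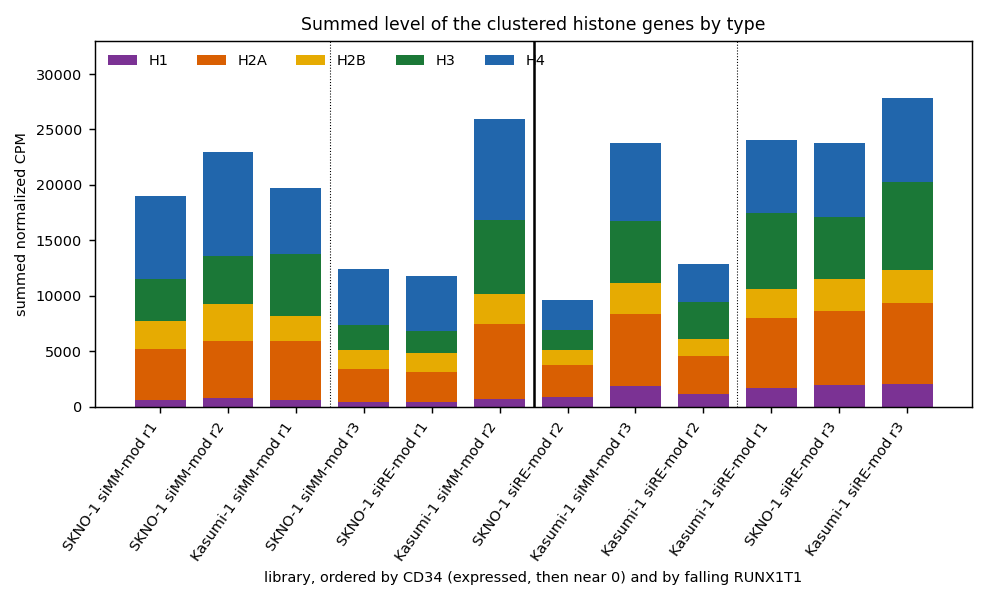
Stacked bars give the summed normalized CPM of the H1, H2A, H2B, H3 and H4 genes in each of the 12 libraries, with CD34 expressed left of the thick line and near 0 right of it, and RUNX1T1 falling within each side. Total height runs from 11769 to 25986 left of the line and from 9635 to 27824 right of it, while the H1 segment is larger in every library on the right (915 to 2085) than on the left (442 to 793).

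Kasumi-1 siMM-mod replicates 2 and 3 stood apart from the libraries nearest to them in CD34 and RUNX1T1. SKNO-1 siMM-mod replicate 3 and SKNO-1 siRE-mod replicate 1, which carry different labels and nearly the same CD34 and RUNX1T1, differed in no expressed histone gene by more than 1.5-fold (0 of 60 higher and 0 lower, background 1.7% and 2.0% of 15863 genes). Against SKNO-1 siMM-mod replicate 3, Kasumi-1 siMM-mod replicate 2 was more than 1.5-fold higher in 46 of the 60 genes and lower in 1 (background 12.0% higher, 22.1% lower), and its summed level was 2.09-fold higher. Against SKNO-1 siRE-mod replicate 1 the counts were again 46 and 1 (background 12.2% and 22.4%), at a 2.21-fold higher sum. Against Kasumi-1 siRE-mod replicate 2, Kasumi-1 siMM-mod replicate 3 was higher in 55 of 60 genes and lower in 1 (background 4.65% and 10.2%), and its sum was 1.84-fold higher. Nearly the whole family was higher together in these libraries, beside a median ratio over all genes of 1.01 and 1.00, and the 1 lower gene was HIST2H2BC in each case. Against SKNO-1 siRE-mod replicate 2 it was higher in 57 and lower in 1 (background 9.05% and 18.9%), whereas Kasumi-1 siRE-mod replicate 2 was higher than that library in 14 and lower in 0 (background 5.02% and 10.1%). The ratio to SKNO-1 siMM-mod replicate 3 differed by type: in Kasumi-1 siMM-mod replicate 2 it was 2.88-fold for H3, 2.32-fold for H2A, 1.82-fold for H4, 1.58-fold for H2B and 1.52-fold for H1. The order was another in Kasumi-1 siMM-mod replicate 3 over Kasumi-1 siRE-mod replicate 2, at 2.05-fold for H4, 1.90-fold for H2A, 1.88-fold for H2B, 1.66-fold for H3 and 1.55-fold for H1. RN7SL1, the abundant RNA of the signal recognition particle that has no poly(A) tail, was 2.02-fold and 3.55-fold higher in Kasumi-1 siMM-mod replicates 2 and 3 than in SKNO-1 siMM-mod replicate 3 and Kasumi-1 siRE-mod replicate 2. SNORD3A, a small nucleolar RNA without a tail, stood the other way in the first of these pairs (27.9 against 50.2) and the same way in the second (53.5 against 31.4). MALAT1, a long nuclear RNA that lacks a canonical poly(A) tail and was chosen after its values were seen, was 0.328-fold and 0.724-fold in the same pairs. The 3 RNAs thus did not move together in these pairs. Whether the selection of RNA differed between libraries is not given in the sources used here, and its part in these differences was not tested. Each of these comparisons sets 1 library against 1 and has no replicate check.

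Because clustered histone mRNA is made in S phase, the sum was set beside that of 16 S phase genes such as MCM7 and MCM4 (replicative helicase subunits). The S phase sum ranged from 1882 to 3266, a narrower range than that of the histone genes. The histone sum per S phase sum was 5.12 to 9.79. It was 8.96, 9.79, 9.20 and 9.58 in Kasumi-1 siMM-mod replicates 2 and 3 and Kasumi-1 siRE-mod replicates 1 and 3, and 5.12 to 7.48 in the other 8 libraries. The S phase sum of Kasumi-1 siMM-mod replicate 3 was 1.01-fold that of Kasumi-1 siRE-mod replicate 2. The 4 libraries with the highest ratio were thus all labelled Kasumi-1 but lay on both sides of CD34 and carried both siRNA labels.

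**Figure D2:**
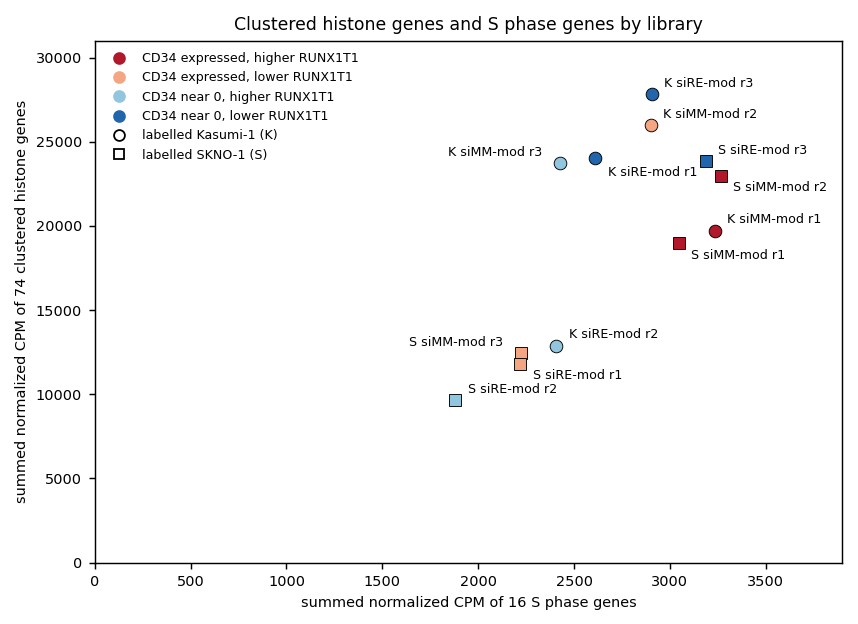
Each point is 1 library (circles labelled Kasumi-1, squares labelled SKNO-1), with the summed normalized CPM of 16 S phase genes on the x axis, that of the 74 clustered histone genes on the y axis, and colours for the CD34 and RUNX1T1 order. Kasumi-1 siMM-mod replicate 3 (23752) and Kasumi-1 siRE-mod replicate 2 (12894) lie at nearly the same S phase sum.

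The composition of the family, in contrast to its sum, differed between the sides of CD34. H1 genes made up 2.58% to 3.83% of the summed histone level in the 6 CD34-expressing libraries and 7.19% to 9.50% in the 6 with CD34 near 0. The groups did not overlap in this share or in the H1 sum itself, which was 442 to 793 and 915 to 2085. H4 genes made up 29.9% to 41.6% and 26.6% to 29.6%, respectively, with the ranges close to each other. The HIST1 cluster made up 35.2% to 43.6% and 44.6% to 54.2%, and the HIST2 cluster 56.3% to 64.7% and 45.7% to 55.4%. Counting each pair of copies as 1 gene kept the H1 shares (3.92% to 5.49% and 10.2% to 12.6%) and the HIST1 shares (47.3% to 54.9% and 57.6% to 66.2%) apart. H2A, H2B and H3 shares overlapped between the sides.

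HIST1H1C, an H1 linker histone that can be polyadenylated, had the widest gap between the sides among the 60 genes with at least 600 reads. It stood at 107, 117, 102, 80.0, 78.3 and 115 in the CD34-expressing libraries and at 324, 618, 379, 518, 597 and 620.5 in those with CD34 near 0, in the library order given for the sums. The lowest value on the second side was 2.76-fold the highest on the first. HIST1H1D was at 28.0 to 43.2 and 93.5 to 159.8, also without overlap. HIST1H1B, the H1 gene with the most reads, was at 340.2, 449.6, 329, 222, 224 and 329 with CD34 and at 318, 695, 457, 642, 752 and 795 without it, and HIST1H1E at 112 to 191 and 179 to 528. Both of these overlapped. As a share of the H1 sum, HIST1H1B took 49.1% to 56.7% in the CD34-expressing libraries and 34.8% to 39.1% in the others, and HIST1H1C took 14.8% to 18.1% and 29.8% to 35.4%. HIST1H1A, a further H1 gene, had 1, 0, 2, 2, 3 and 1 reads with CD34 and 58, 92, 101, 86, 125 and 89 reads without it. It was below the limit of 600 reads and was not among the genes tested. HIST1H1A was named after its values were seen, as were HIST2H2AC, HIST1H2BB, HIST1H2AB, HIST1H3C, HIST1H4F and the genes listed by name beside counts of genes without overlap.

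Within the core histones, single genes differed between the sides in their share of their type. HIST1H2BB stood at 21.6, 27.1, 16.7, 10.2, 11.0 and 15.6 with CD34 and at 56.1, 139, 67.1, 112, 112 and 127 without it, a 13.6-fold range that was the widest of the 60 expressed genes. HIST2H2BF, the H2B gene with the most reads, went the other way, at 583, 857, 551, 388, 388 and 665 with CD34 and 163, 379, 180.0, 326, 348 and 376 without it. Neither gene overlapped between the sides, although HIST2H2BF came close (379 against 388). As shares of the H2B sum the separation was wider, 0.577% to 0.836% against 3.98% to 4.93% for HIST1H2BB and 22.6% to 25.4% against 12.0% to 13.5% for HIST2H2BF. HIST1H4F was at 28.9 to 56.0 and 82.9 to 186, and HIST1H2AB at 13.8 to 30.1 and 43.7 to 110.3. HIST1H3A was at 11.3 to 27.1 and 27.8 to 98.5, with almost touching ranges. HIST1H3C took 1.66% to 1.88% of the H3 sum with CD34 and 3.41% to 5.31% without it, while its levels (38.3 to 125 and 65.9 to 359.5) overlapped. HIST1H2BB and HIST2H2BF hold the same stem-loop word and a promoter octamer, as printed above, and a relation of either to levels was not tested.

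**Figure D3:**
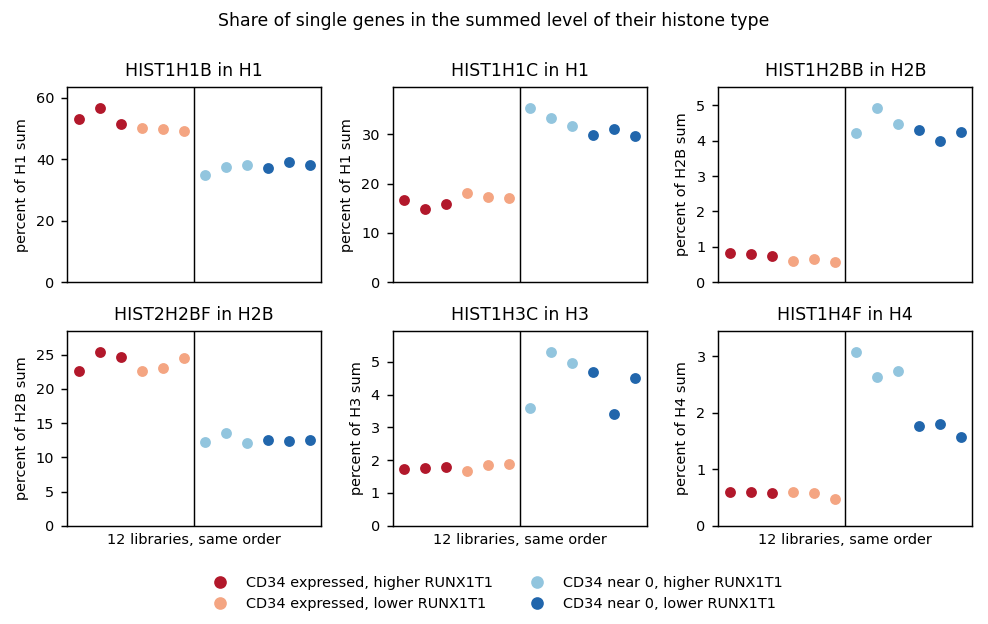
Each panel plots 1 gene as percent of the summed normalized CPM of its histone type in the 12 libraries, in the order of the sums, with the line between CD34 expressed and near 0 and colours for the RUNX1T1 order. HIST1H1C, HIST1H2BB, HIST1H3C and HIST1H4F take a larger share in every library without CD34, and HIST1H1B and HIST2H2BF a smaller one.

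Over the whole family such genes were few. Of the 60 expressed genes, 7 were higher without overlap in the libraries with CD34 near 0 and 1 was lower, against a background of 17.5% and 15.6% of 15863 genes. The 7 were HIST1H1C, HIST1H1D, HIST1H2AB, HIST1H2BB, HIST1H3A, HIST1H4F and HIST2H2BD, and the 1 was HIST2H2BF. Both shares were below the background. Among the CD34-expressing libraries, 0 genes were higher and 5 lower in the 3 libraries with lower RUNX1T1 (background 18.1% and 20.1%). The 5 were HIST1H1D, HIST1H2BB, HIST1H3E, HIST2H2BC and HIST4H4, the last at 13.7 to 22.8 against 29.2 to 45.8. Among those with CD34 near 0, 15 were higher and 0 lower in the 3 with lower RUNX1T1 (background 21.7% and 21.6%). The 15 included HIST1H1E at 441 to 528 against 179 to 375, HIST2H2AA3, both HIST2H3A and HIST2H3C, and both HIST2H4A and HIST2H4B. The 15 of 60 were near the background, and the 2 readings went in opposite directions.

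**Figure D4:**
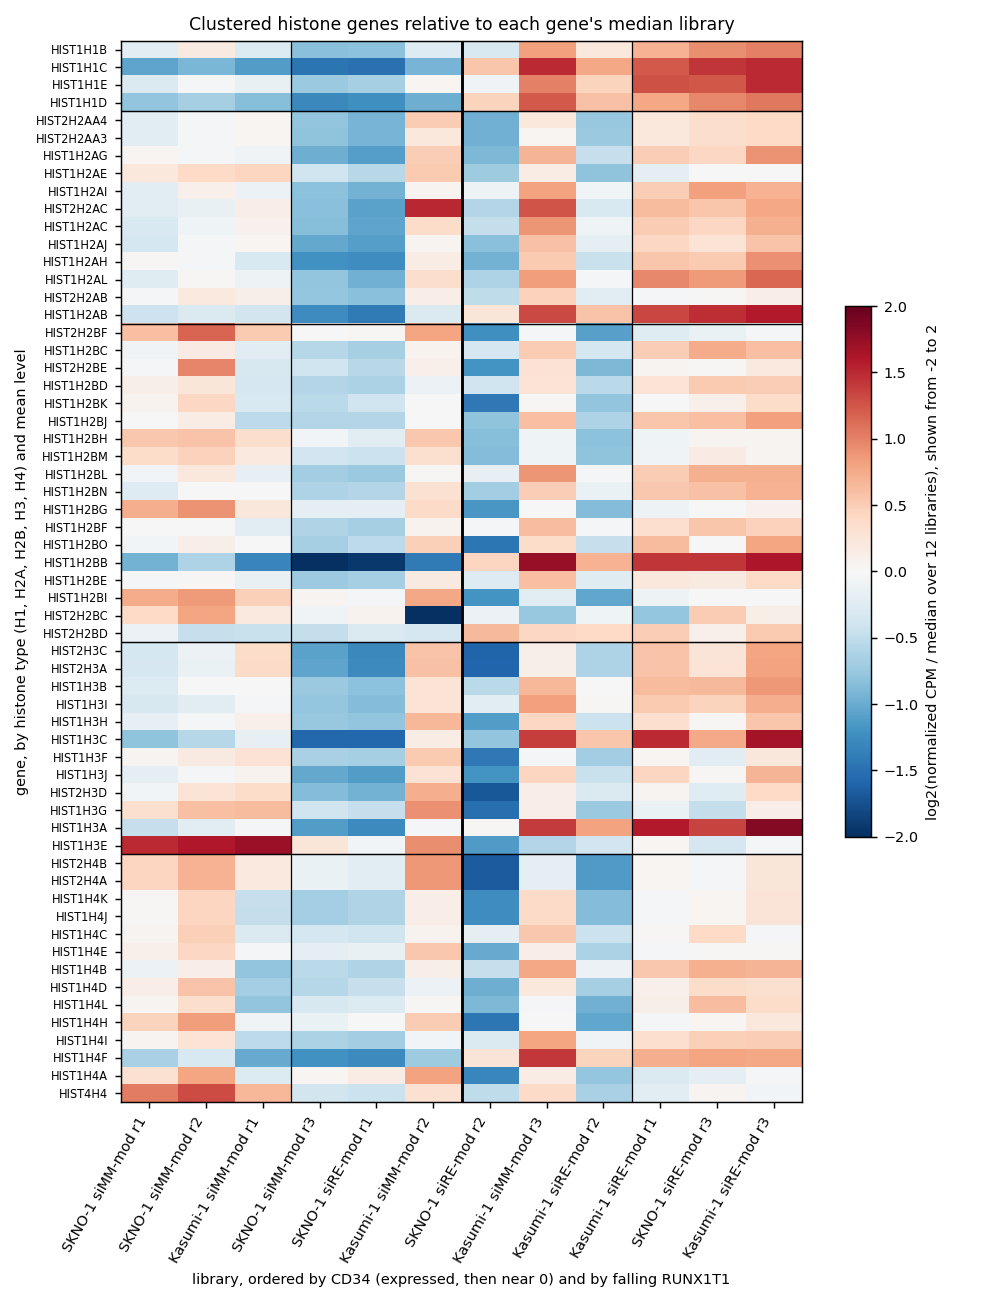
Colours give log2 of the normalized CPM over each gene's median for the 60 expressed clustered histone genes (rows, by type and mean level) in the 12 libraries (columns), with black lines between types and between the CD34 and RUNX1T1 sides. HIST1H1C, HIST1H1D and HIST1H2BB are below their median in the 6 libraries left of the thick line and above it in the 6 to its right, whereas most other rows change colour with the library.

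By label, no clustered histone gene passed the test between siRE-mod and siMM-mod. In Kasumi-1, 0 of 59 tested genes reached an adjusted p of 0.05 (quasi-likelihood test of edgeR, adjusted after Benjamini and Hochberg; background 0.0% of 13608 genes). At an unadjusted p below 0.05, 0 were higher and 4 lower (background 5.85% and 12.0%, together 17.9%). In SKNO-1, 0 of 59 passed (background 0.0% of 13628 genes), and 1 was higher and 4 lower at the unadjusted threshold (background 8.3% and 2.38%, together 10.7%). DESeq2 called 1 gene in Kasumi-1, HIST4H4, which was lower (background 8.5%, of which 1.62% higher and 6.87% lower), and 0 in SKNO-1 (background 2.73%). Without overlap between the labels, 0 of 60 were higher and 3 lower in Kasumi-1 siRE-mod (background 10.5% and 11.1%), the 3 being HIST1H2AE, HIST2H2BF and HIST4H4. In SKNO-1 siRE-mod the counts were 0 and 3 (background 5.93% and 6.01%), the 3 being HIST1H2BI, HIST1H3E and HIST1H3G. The median log2 fold change in Kasumi-1 was 0.016 over the histone genes and 0.020 over all genes. For SKNO-1 these medians were -0.11 and 0.027. In Kasumi-1, 33 histone genes had a fold change above 0 and 26 below it (background 51.8% above), and in SKNO-1 21 and 38 (background 52.6%). Scaling by total counts shifted the median of all genes to 0.32 and 0.14, and the split then was 43 against 16 (Kasumi-1, background 73.7% above 0) and 32 against 27 (SKNO-1, background 63.3%). The histone genes' medians on that scale were 0.33 and 0.043.

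HIST4H4, the lone H4 gene outside the large clusters, was the gene nearest to the threshold in Kasumi-1. It was at 29.2, 22.8 and 24.2 in the siMM-mod and at 15.9, 11.7 and 17.7 in the siRE-mod libraries, without overlap, a log2 fold change of -0.75 ± 0.21 (SE, edgeR adjusted p = 0.252). In SKNO-1 it was at 37.6, 45.8 and 14.4 in siMM-mod and 13.7, 13.0 and 19.3 in siRE-mod (log2 fold change -1.09 ± 0.43, edgeR adjusted p = 0.466), with overlap. HIST1H2AE, one of the H2A genes, was at 299, 318 and 246 in Kasumi-1 siMM-mod and 197, 127 and 219 in siRE-mod (-0.67 ± 0.24, edgeR adjusted p = 0.255). In SKNO-1 it was at 258, 293 and 167 in siMM-mod and 151, 135 and 224 in siRE-mod, which overlapped (-0.50 ± 0.28).

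In SKNO-1 the smallest unadjusted p values belonged to HIST1H3G and HIST1H1C, in opposite directions. HIST1H3G was at 76.4, 92.7 and 46.3 in siMM-mod and 44.6, 21.7 and 43.9 in siRE-mod (-0.97 ± 0.37, edgeR adjusted p = 0.466), without overlap. HIST1H1C was at 107, 117 and 80.0 in siMM-mod and 78.3, 324 and 597 in siRE-mod (1.70 ± 0.65, edgeR adjusted p = 0.466), where replicate 1, the library with CD34, lay below all siMM-mod libraries. In Kasumi-1 the same gene was at 102, 115 and 618 in siMM-mod and 518, 379 and 620.5 in siRE-mod, with siMM-mod replicate 3, the library without CD34, nearly as high as the highest siRE-mod library. HIST1H1D followed the same libraries (0.65 ± 0.62 by label for Kasumi-1, 1.20 ± 0.51 for SKNO-1). HIST1H1E (0.75 ± 0.40 and 0.71 ± 0.47) and HIST1H3A (0.87 ± 0.48 and 0.94 ± 0.62) had the smallest p values among the higher genes in Kasumi-1, at unadjusted p of 0.105 and 0.118 in the edgeR test. The SKNO-1 values rested on siRE-mod replicate 3, without which they were 0.028 and 0.091. Without siRE-mod replicate 1 they were 1.02 and 1.35, and for Kasumi-1 without siMM-mod replicate 3 they were 1.19 and 1.497.

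Among the genes with the most reads of each type, HIST2H2BF had a log2 fold change of -0.85 ± 0.34 by label for Kasumi-1 and of -1.02 ± 0.41 for SKNO-1. HIST2H4A had -0.53 ± 0.43 and -0.86 ± 0.44, and its copy HIST2H4B, the H4 gene with the most reads, the same within 0.01. HIST2H2AA3 (-0.06 ± 0.30 and -0.07 ± 0.41), HIST2H2AA4 (-0.23 ± 0.32 and -0.07 ± 0.40), HIST2H3C (0.00 ± 0.37 and -0.18 ± 0.52) and HIST1H2BC (0.16 ± 0.30 and 0.16 ± 0.39) lay within 1 SE of 0. HIST1H1B was at 0.49 ± 0.36 and 0.34 ± 0.47. None of these passed the threshold in either line. The difference between the lines was called for 0 of 60 genes by edgeR (background 0.0% of 15863 genes), with 0 at the unadjusted threshold (background 0.668%), and for 0 by DESeq2 (background 0.801%). For HIST1H1C this difference was 0.86 ± 1.07 on the log2 scale, and over the 16 named genes its SE was 0.39 (HIST1H2AE) to 1.07. A count of 0 at this error does not show that the lines responded alike.

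**Figure D5:**
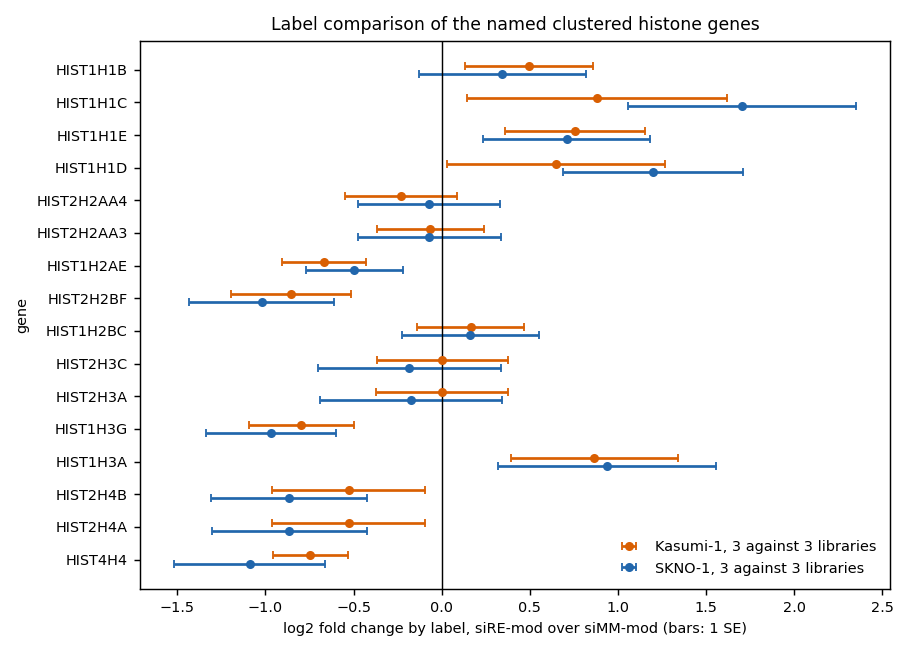
Points give the log2 fold change of siRE-mod over siMM-mod by label for 16 named genes, orange in Kasumi-1 and blue in SKNO-1, with bars of 1 SE from edgeR fits of 3 against 3 libraries. HIST4H4, HIST2H2BF and HIST1H3G lie left of 0 and the 4 H1 genes right of 0 in both lines, with no adjusted p below 0.25.

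The label comparison depended on 2 libraries. Without Kasumi-1 siMM-mod replicate 3, the Kasumi-1 fit sets libraries with CD34 against libraries without it and called 12 of 59 histone genes, 10 higher and 2 lower (background 32.2% of genes, of which 16.5% higher and 15.7% lower). HIST1H1C then had a log2 fold change of 2.22 and HIST1H1D of 1.73. Without SKNO-1 siRE-mod replicate 1, the SKNO-1 fit likewise called 5 of 59, all higher (background 19.3%, of which 10.8% higher and 8.55% lower), with HIST1H1C at 2.15 and HIST1H1D at 1.59. Since both fits divide the libraries as CD34 does, their counts and values are given as a description, not as tests of the siRNA. The other 3 were HIST1H2AB, HIST1H2BB and HIST1H4F, and the 2 lower genes in the Kasumi-1 fit were HIST1H3G and HIST4H4. HIST1H1C and HIST1H1D had a fold change above 0 in both lines with these libraries and without them. Without them that direction was given in advance, since neither gene overlapped between the sides of CD34.

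The list of genes known to also make polyadenylated mRNA held 8 of the clustered genes. Of HIST1H1C, HIST1H2AC, HIST1H2BC, HIST1H2BD, HIST1H2BJ, HIST1H2BK, HIST2H2BE and HIST4H4, 0 passed the adjusted threshold of edgeR in either line, with 1 lower for Kasumi-1 (background 12.0%) and 1 higher and 1 lower for SKNO-1 (background 8.3% and 2.38%) at the unadjusted threshold. DESeq2 called 1 of the 8, HIST4H4, as lower for Kasumi-1 (background 6.87%) and 0 for SKNO-1 (background 2.73%). Without overlap, 1 (HIST1H1C) was higher in the libraries with CD34 near 0 (background 17.5%). HIST2H2BE ranged from 122 to 552, HIST1H2BD from 153 to 344 and HIST1H2BK from 85.2 to 307, with both sides of CD34 overlapping. HIST2H2BE at 552 in SKNO-1 siMM-mod replicate 2 was well above the 122 to 343 of the other 11 libraries.

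Genes that work on histones or their mRNA varied less in sum than the clustered genes. The 17 genes of histone mRNA synthesis and processing, with CPSF2 and CPSF3 of the 3′ end cleavage complex the highest, summed to 673 to 969. For the lists that follow, the background at edgeR's unadjusted threshold was 5.85% higher and 12.0% lower for Kasumi-1 and 8.3% and 2.38% for SKNO-1. That of DESeq2's calls was 1.62% higher and 6.87% lower for Kasumi-1 and 2.6% and 0.132% for SKNO-1. In edgeR's test 0 of 17 passed in either line, with 2 higher and 1 lower at the unadjusted threshold for Kasumi-1 and 0 for SKNO-1, and DESeq2 called 2 as higher in Kasumi-1 and 0 for SKNO-1. The 12 histone chaperones, led by NAP1L1 (775 to 2858) and RBBP4 (298 to 522), summed to 1837 to 4480. Of the 11 tested, 0 passed in edgeR, 1 was lower at the unadjusted threshold for Kasumi-1, and DESeq2 called 1 as lower there and 0 for SKNO-1. The 11 replacement histone genes, which are transcribed outside S phase as well and include H2AFY (332 to 835) and H3F3B (256 to 690), summed to 1618 to 2667. Of these 0 passed in edgeR, with 1 lower for Kasumi-1 and 2 higher for SKNO-1 at the unadjusted threshold, and DESeq2 called 1 as lower in the former and 1 as higher in the latter. The 16 S phase genes had 0 past the threshold by edgeR or DESeq2, with 1 lower in each line at the unadjusted threshold, and their median log2 fold change was -0.07 for Kasumi-1 and -0.18 for SKNO-1. In the libraries with CD34, 10 of the 16 were lower without overlap in the 3 with lower RUNX1T1, and among those with CD34 near 0, 10 of 16 were higher in the 3 with lower RUNX1T1, beside the same backgrounds of 20.1% and 21.7%. Of the 17 synthesis and processing genes, 6 were lower and 2 higher in the first reading, and 10 higher and 1 lower in the second. For the 12 chaperones these counts were 5 and 0, then 5 and 2. For the 11 replacement histone genes they were 4 and 0, then 4 and 2. The backgrounds of the opposite directions were 18.1% and 21.6%.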

How the data were processed

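RNA was isolated with the AllPrep kit, and per the study's methods and the submitters' processing notes reads were trimmed with Trim Galore 0.6.5, aligned to GRCh38 with STAR 2.7.10a and counted with Subread 1.6.5, while the file headers name Rsubread 1.32.4 under R 3.5.1. The authors deposited raw exon read counts per gene and CPM, the counts scaled to a common library total. RNA selection, strand and the handling of reads shared by genes are not given in the sources used here. Counts were fitted here with edgeR 4.0.16 (R 4.3.3; quasi-likelihood test, TMM, genes with at least 600 reads in the fit's libraries, Benjamini-Hochberg) per line, with an interaction for the difference. DESeq2 1.42.0, other scalings and filters, a replicate block and each library left out were alternatives. Libraries of equal number did not deviate together within a line (correlations -0.272 to -0.013), so the numbers were not used as pairs. Sums are of normalized CPM. Between 2 libraries, folds were taken after adding 0.01 CPM to both. Fit scripts were tested on simulated data, where the interaction recovered fewer 2-fold changes than the fits per line. That run checked the scripts only. What share of real changes these libraries could reveal was not measured. The genes and lists were chosen with earlier results of these data known. With fold changes, named genes were the 2 most abundant tested genes per type and, per line, up to 2 per direction with the smallest p. With levels only, they were HIST3, HIST4, polyadenylated, germline, overlapping and copied genes and the highest per kilobase, plus the 2 highest of other lists. Xenograft counts were not used.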

Additional observations from a re-analysis of the deposited data

How the results depend on the processing

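Most values kept their direction and side of the threshold: 311 of those with 1 library left out and 332 of the others. Keeping the side says little here, since edgeR called 0 genes in each main fit. Direction reversed in 24 of those with 1 library left out and in 14 of the others. DESeq2 called 1156 genes and 1 clustered histone gene in Kasumi-1, 372 genes for SKNO-1, and 127 for the difference between the lines, where edgeR called 0. With 1 library left out, edgeR called 0 to 4250 genes and 0 to 12 histone genes for Kasumi-1, and 0 to 2535 and 0 to 5 for SKNO-1. The summed HIST4 log2 ratio in Kasumi-1 was -0.44 with the deposited CPM. In Kasumi-1 the total-count scaling turned the log2 fold change of HIST2H2AA3 to 0.25 and of HIST2H2AA4 to 0.092, and in SKNO-1 to 0.082 and 0.080. HIST2H3A and HIST2H3C in Kasumi-1, close to 0, turned to -0.018 and -0.018 with DESeq2 or its size factors, -0.014 and -0.013 with genes of at least 1 read, -0.041 and -0.041 with filterByExpr, and -0.091 and -0.089 with the replicate block. With 1 library left out, the Kasumi-1 ranges were -0.27 to 0.22 for HIST2H2AA3, -0.43 to 0.049 for HIST2H2AA4, and -0.25 to 0.33 for HIST2H3A and HIST2H3C. The SKNO-1 ranges were -0.28 to 0.63 for HIST1H1B, -0.33 to 0.40 for HIST1H2BC, -0.59 to 0.14 for HIST2H2AA3 and HIST2H2AA4, and -0.93 to 0.13 for HIST2H3A and -0.93 to 0.12 for HIST2H3C. The causes were not tested, except that leaving out Kasumi-1 siMM-mod replicate 3 or SKNO-1 siRE-mod replicate 1 sets the CD34 sides against each other. The block called 0 genes at the adjusted threshold in both lines. Unadjusted, it passed 3 histone genes as higher and 1 as lower in Kasumi-1 (4.88% and 8.08% of all genes), against 0 and 4 without it (5.85% and 12.0%). For SKNO-1 it passed 0 and 0 (4.71% and 3.6%), against 1 and 4 (8.3% and 2.38%). With 3 libraries per group the spread between libraries limits the label comparison, and reads shared by copies limit the values of single genes. Counting each pair of copies as 1 gene and leaving out the pseudogenes were chosen after seeing the data.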
